A study of Drosophila melanogaster with 4 samples.

Results

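The bithorax complex of Drosophila melanogaster holds the Hox genes Ubx, abd-A and Abd-B, in this order along chromosome arm 3R. Its H3K36me1-enriched regions were taken as all regions that overlapped 3R from 12.48 to 12.81 Mb by at least 1 bp, in the coordinates of FlyBase release 5. These were 14 of the 5434 regions of replicate 1, 16 of the 4523 regions of replicate 2 and 15 of the 8051 regions of the list made for the set of replicates. All of them lay wholly inside these limits.

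Histone H3 that carries a single methyl group on lysine 36 (H3K36me1) was immunoprecipitated from crosslinked chromatin of Oregon-R embryos, wild type and aged 14 to 16 hours, and the DNA was sequenced. There were 4 samples, 2 immunoprecipitated replicates and 2 inputs (chromatin without immunoprecipitation). For each replicate the authors deposited regions of enrichment over the matching input, each with a score. Read numbers were not used here and the depth is unknown, and nothing in the labels says that the replicates were separate collections, so their spread may be technical. The chromatin came from whole embryos, so cells that express a Hox gene and cells that do not contributed together, and more cells with the mark cannot be told apart from more of the mark per cell.

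Hox genes encode homeodomain transcription factors that give body segments their identity along the head-to-tail axis. Ubx acts in the posterior thorax and the front of the abdomen, abd-A in the middle of the abdomen, and Abd-B in the posterior abdomen and the genitalia. Long stretches of regulatory DNA lie between the genes, and Polycomb group and trithorax group proteins keep them silent or active in the segments where this was set early in the embryo. Ash1, a trithorax group protein, and NSD (also called Mes-4) are methyltransferases of lysine 36 of histone H3, and Set2 is known for its trimethylation in transcribed genes. In the gene table at hand, which is of release 6 and was used for names and order only, modSP precedes Ubx. Between Ubx and abd-A stand lncRNA:bxd and Glut3 among others, and between abd-A and Abd-B stand lncRNA:iab8, lncRNA:iab4 and the miRNA genes mir-iab-4 and mir-iab-8. VhaM9.7-d follows Abd-B. Gene positions on release 5 were not used here, so no region is assigned to a gene, and "Ubx side" and "Abd-B side" mean the low-coordinate and the high-coordinate end.

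The complex was one of the most heavily marked stretches of its length in the genome, and the marking was uneven. Enriched regions covered almost all of the sequence on the Ubx side and in the middle, and they ended within the Abd-B side. Replicate 1 marked 247.2 kb of the 330 kb, or 74.9%, and replicate 2 marked 246.7 kb, or 74.8%. The mean was 74.8% ± 0.0988 (SD, n = 2). Sequence marked in both replicates made up 73.1%, and the list for the set of replicates marked 79.1%.

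All windows of the same length, placed every 10 kb on 2L, 2R, 3L, 3R and X without those that touched the complex, gave the background. Among these 11675 windows the median share marked in both replicates was 12.2%, so that of the complex was 5.97 times the median. None of the windows was marked as much in both replicates (0%), and the highest reached 72.0%. In replicate 1 alone, 1 window (0.00857%) was marked at least as much as the complex, and in replicate 2 alone none was (0%). In the list for the set it was 7 windows (0.0600%), of which 3 lay on 3R. Neighbouring windows share most of their sequence, and all come from 1 pair of samples, so these counts describe the lists and carry no p-value. The choice of the complex was itself made with its broad marking known.

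**Figure D1:**
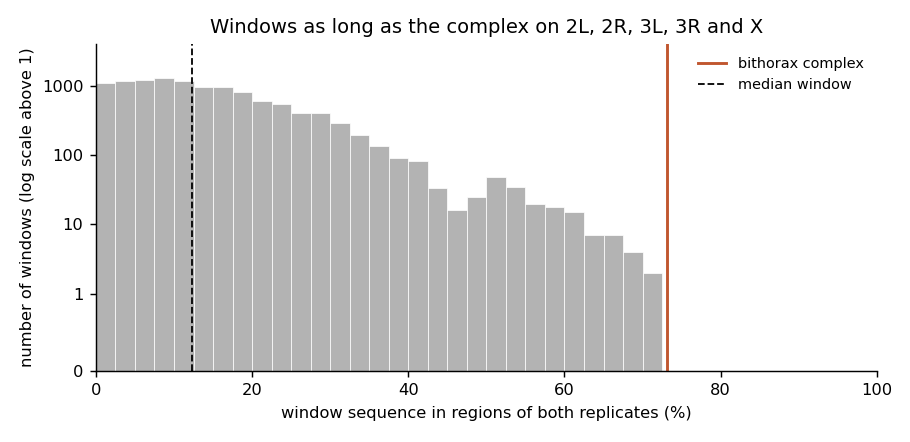
Number of windows as long as the complex (y axis, log scale above 1) by the share of their sequence that lay in regions of both replicates (x axis, %). The solid line marks the bithorax complex at 73.1% and the dashed line the median window at 12.2%. The highest window reached 72.0%.

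The windows that came closest were given by position, without gene names. The first lay on 3L from 11220001 to 11550001, with 72.0% marked in both replicates. It was the window that exceeded the complex in replicate 1, at 75.2% against 74.9%, while in replicate 2 it had 73.8% against 74.8%. The second lay on 3R from 620001 to 950001, with 67.5%. The others among the 5 windows covered most, none overlapping another, lay on 3L from 500001 to 830001 (62.2%), on 2L from 14360001 to 14690001 (59.6%) and on 3L from 15500001 to 15830001 (58.0%). The complex stood above the first of these windows by 1.12 percentage points for sequence marked in both replicates. The shares of that window in the single replicates spread by 1.02 percentage points (SD, n = 2). This is another measure, since sequence marked in both replicates has a single value per window and no spread. The single replicates placed the window on different sides of the complex, so the order of the pair is not settled by these data. In the list for the set the order was different, with 82.3% in the first of these windows, 82.1% in the second and 79.1% in the complex.

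The marking changed along the complex. The 110 kb on the Ubx side, up to 12589999, had a covered share of 93.3% in replicate 1 and of 94.0% in replicate 2. The middle 110 kb, up to 12699999, were covered to 94.0% and 95.5%. The 110 kb on the Abd-B side were covered to 37.5% and 34.8%. These parts are equal lengths, not genes, and the drop on the Abd-B side was far larger than the spread between replicates, whose SD was 0.514, 1.09 and 1.90 percentage points in the order of the parts (n = 2).

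Each part was also set against all windows of its own length, 11807 in number, a comparison added after the values were seen. The median of these windows was 9.17% for sequence marked in both replicates. The Ubx side had 93.2%, and 25 windows (0.212%) had at least as much. The middle had 93.0%, and again 25 windows (0.212%) had at least as much. The Abd-B side had 33.0%, and 1476 windows (12.5%) had at least as much. The Abd-B side thus lay above the median window, at 3.59 times its value, and well within the range of ordinary windows.

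**Figure D2:**
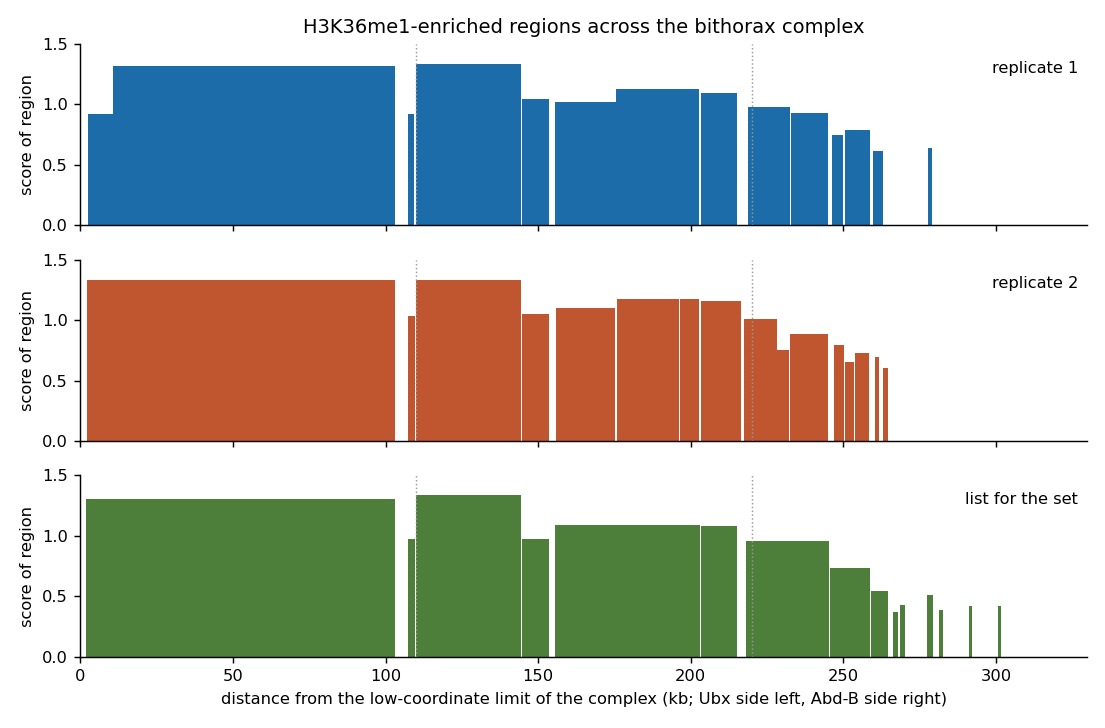
Regions of the 3 lists across the complex. The x axis is the distance from the low-coordinate limit in kb, the bar width is the length of the region, the bar height is its score, and dotted lines divide the complex into 3 equal parts. In all lists wide bars fill the Ubx side and the middle, and the lowest scores lie on the Abd-B side. Scores run from 0.615 to 1.33 in replicate 1 and from 0.605 to 1.34 in replicate 2. Bar heights are not comparable between lists, since the scale of the score is unknown.

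On the Ubx side a single broad domain took up nearly the whole part. In replicate 2 it was 1 region of 101.0 kb, from 12482088 to 12583064, with a score of 1.33. In replicate 1 the same sequence was called as a pair of regions, one of 8.08 kb from 12482515 to 12490593 with a score of 0.92, and one of 92.3 kb from 12490772 to 12583042 with a score of 1.32. Only 178 bp separated them, and the list for the set again had 1 region, of 101.1 kb, from 12481951 to 12583081. By length the domain was number 5 of 5434 regions in replicate 1, number 4 of 4523 in replicate 2 and number 6 of 8051 in the set. Its low-coordinate edge lay within 564 bp in the 3 lists, and its high-coordinate edge within 39 bp.

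The domain was followed by the longest gap inside the marked sequence. This gap measured 4222 bp in replicate 1, from 12583043 to 12587264, and 4239 bp in replicate 2, from 12583065 to 12587303. The list for the set had it too, at 4167 bp. A short region came next, of 2206 bp and 2270 bp in the replicates. It had scores of 0.92 and 1.03, higher than those of 86.4% and 87.1% of its list, although 49.8% and 50.4% of the regions of these lists were shorter than it. It was the only region under 5 kb that began in the first 220 kb of the complex in either replicate.

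The middle part carried the second broad domain and a run of regions with small gaps. The domain was 34.5 kb long in replicate 1, from 12589964 to 12624435, and 34.4 kb long in replicate 2, from 12589855 to 12624301. It had the highest score of the complex in each list, 1.33 in replicate 1, 1.34 in replicate 2 and 1.34 in the set. Its edges differed by 109 and 134 bp between the replicates. A region of 8.88 kb and 8.85 kb followed, up to 12633553 and 12633468, with scores of 1.04 and 1.05.

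After a gap of 2138 bp in replicate 1 and 2376 bp in replicate 2, the marked sequence went on from 12635692 and 12635845. The first region there measured 19.9 kb and 19.4 kb in the replicates and had scores of 1.02 and 1.10. Replicate 1 then had 1 region of 27.0 kb with a score of 1.13. Replicate 2 had the same sequence as regions of 20.5 kb and 6.28 kb with scores of 1.17 and 1.17 and 219 bp between them. The list for the set joined all of this into 1 region of 47.6 kb, from 12635464 to 12683020. The borders inside this stretch therefore differed between the lists, while the outer edges differed by at most 381 bp. A last region of the middle part, of 11.9 kb and 13.2 kb, had scores of 1.09 and 1.16.

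A further gap of the middle part differed in length between the replicates. In replicate 1 it was 3472 bp long, from 12695294 to 12698765, and in replicate 2 it was 883 bp long, from 12696624 to 12697506. The gap of replicate 2 lay inside that of replicate 1. In the list for the set it was 2681 bp long.

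On the Abd-B side the regions became shorter and their scores lower until they ended. In replicate 1 regions of 13.8 kb and 12.3 kb, with scores of 0.98 and 0.92, reached to 12724999. Regions of 3.71, 8.05 and 3.19 kb, with scores of 0.75, 0.79 and 0.62, followed up to 12742895. In replicate 2 regions of 10.7, 3.89 and 12.5 kb, with scores of 1.01, 0.75 and 0.88, reached to 12725020. Then 5 regions of between 1305 and 4414 bp, with scores from 0.61 to 0.79, followed up to 12744627. Over all members scores were lower at higher coordinates. The Spearman correlation was -0.64 over 14 regions in replicate 1, -0.86 over 16 in replicate 2 and -0.88 over 15 in the set. This was not a steady fall, and the lowest scores lay on the Abd-B side. In replicate 1 the first region scored 0.92, the second broad domain 1.33 and the last region of the middle part 1.09. In replicate 2 these scores were 1.33, 1.34 and 1.16. Lengths were shorter too (-0.48, -0.66 and -0.84), and longer members had higher scores (0.89, 0.82 and 0.88). Regions of 1 list share their library and neighbouring sequence, so no p-value is attached.

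Beyond 12744627 hardly any sequence was marked. In the 65.4 kb from there to the limit of the complex, replicate 2 had no region by construction, since this point is the end of its last region there. Replicate 1 had 1 region of 1381 bp, from 12757765 to 12759145, with a score of 0.64, or 2.11% of this sequence. The list for the set had 6 regions that began there, of 1031 to 2042 bp, and marked 13.3%. Their scores of 0.37 to 0.51 were higher than those of 17.8% to 63.5% of that list. Between regions of the complex, replicate 1 had 6 gaps of at least 1 kb, replicate 2 had 5 and the set had 8. The longest of replicate 1, at 14869 bp from 12742896 to 12757764, lay before its last region. In the set, gaps of 1503, 7193, 2196, 8437 and 8503 bp lay on the Abd-B side beyond the marked sequence, and one of 1930 bp began at 12633534 in the middle. A lower share in a replicate list means that no region passed the authors' threshold, whose value was not at hand, and at unknown depth it does not show that the mark was absent.

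The sequence before this point, 262.5 kb from 12482088, had a covered share of 93.6% in replicate 1 and of 94.0% in replicate 2. Its limits, the outer edges of the regions of replicate 2, were set after the values were seen. The gaps in this sequence were short and many were shared. Replicate 1 had 14 gaps in it, among them unmarked pieces at both ends, and replicate 2 had 15. In both replicates 11 stretches with a total of 11.1 kb were unmarked. Of these, 4 measured 1 kb or more, at 4200 bp, 2138 bp, 1146 bp and 1047 bp. The list for the set marked 0.786% of the first, 10.7% of the second, 68.2% of the third and 65.9% of the last. The gaps that begin at 12583065 and 12633554 were thus nearly unmarked in all 3 lists.

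Together with a region just before the complex, the marked sequence also formed the longest chain of regions less than 5 kb apart in each list. This measure was added after the values were seen. With regions less than 5 kb apart joined, the chain at the complex measured 267.3 kb in replicate 1, 269.0 kb in replicate 2 and 274.6 kb in the set. It began outside the complex, at 12475581, 12475586 and 12475444. The gap that joined this outer region was 4.78, 4.26 and 3.80 kb. The longest chains elsewhere measured 233.3, 178.9 and 235.7 kb, all on 3L. This order depended on the distance allowed. With 1 kb the longest chain in the complex was number 7, 5 and 9 in length in these lists, and with 2 kb it was number 8, 7 and 9. With 10 kb the chain, which began still farther outside, was number 1, 1 and 2. On the arms the median gap between regions was 4.04 kb in replicate 1, 4.96 kb in replicate 2 and 2.72 kb in the set. Gaps under 5 kb made up 55.2%, 50.1% and 66.3% of all gaps in these lists, so joining at 5 kb is not strict. In the replicates 21.6% and 21.7% of the gaps were under 1 kb. In the complex 7 of 13 and 10 of 15 gaps between regions were under 1 kb.

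**Figure D3:**
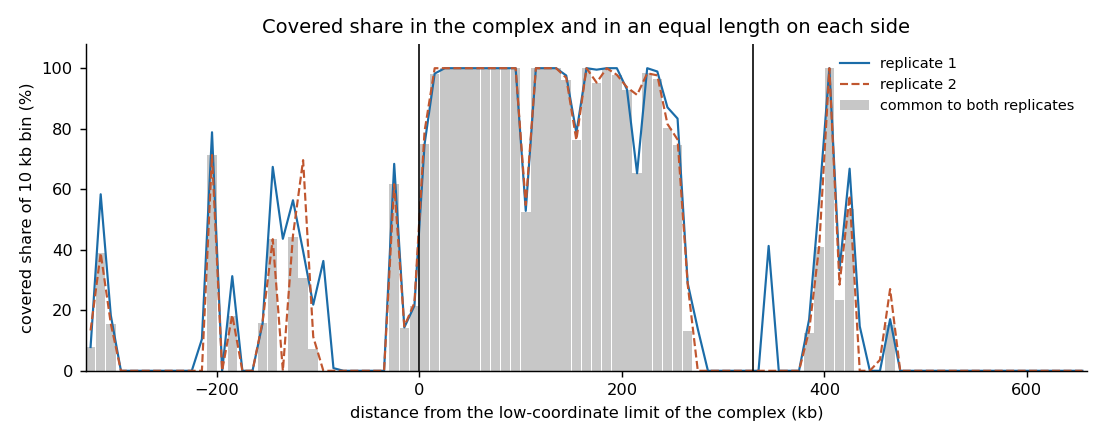
Share of each 10 kb bin in enriched regions (y axis, %), in the complex (between the black lines) and in 330 kb on each side. Bars are sequence marked in both replicates, lines are the single replicates, and the x axis is the distance from the low-coordinate limit in kb. In the complex 20 of 33 bins were covered to at least 90%, against 0 of 33 before it and 1 of 33 after it.

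The flanks of the complex were marked far less than the complex itself. The 330 kb before it had a covered share of 17.9% in replicate 1 and of 13.4% in replicate 2, and the 330 kb after it one of 10.5% and 8.23%. The median window had 17.4% and 14.2%, so the flank before was close to an ordinary window and the flank after was lower. In the set the flanks had 28.5% and 13.5%, against a median of 24.7%. In bins of 10 kb, 20 of the 33 bins of the complex were covered to at least 90% in both replicates, against 5.05% of all 11901 bins on the arms. No sequence marked in both replicates was found in 6 of the 33 bins (18.2%), all on the Abd-B side. Such bins made up 66.9% of all bins on the arms, so they were rarer in the complex. On the Ubx side a region of 2.15 kb, from 12475581 to 12477732 in replicate 1, lay 4.78 kb before the first region of the complex. On the Abd-B side the next region of replicate 1 began at 12821928, 62.8 kb after the last one of the complex, and that of replicate 2 began at 12864676, 120.0 kb after it. Farther on, a stretch with no region ran from 12943767 to 13215800 in replicate 1, 272.0 kb, and from 12943561 to 13215845 in replicate 2, 272.3 kb.

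The marking of the complex rested on long regions. Regions of at least 10 kb were 7 of 14 in replicate 1, against 8.08% of the whole list, and 7 of 16 in replicate 2, against 8.58%. They held 85.6% and 85.8% of the marked length in the complex, against 38.4% and 39.7% in the whole lists. The number of regions was not unusual, since the median window held 14 regions in replicate 1 and 12 in replicate 2, against 14 and 16 in the complex.

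Scores in the complex were high in the whole list and of middle rank among long regions. In replicate 1, 6 of 14 regions scored higher than 90% of the list, as 9.99% of all its regions do by construction, and in replicate 2 it was 6 of 16 (9.99%). Weighted by length, the regions of the complex scored higher than 92.3% of the list of replicate 1 and 89.6% of that of replicate 2 on average. The same weighted value was 71.4% over each whole list, and the median window had 67.8% in each replicate. In the windows of the same length, 1.18% and 3.11% had as high a weighted rank in these lists. Among the regions of at least 10 kb only, the weighted mean over both replicates was 56.9%. The 92.3 kb domain on the Ubx side was number 184 by score of all 5434 regions of replicate 1, and number 124 of the 439 long ones. In replicate 2 the domain was number 199 of 4523, and number 127 of the 388 long ones. The scale of the score is unknown, and the median score of a list was 0.613 in replicate 1, 0.714 in replicate 2 and 0.463 in the set. Scores were therefore ranked within a list. Scores of different lists that are given side by side are not meant as a comparison between lists.

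**Figure D4:**
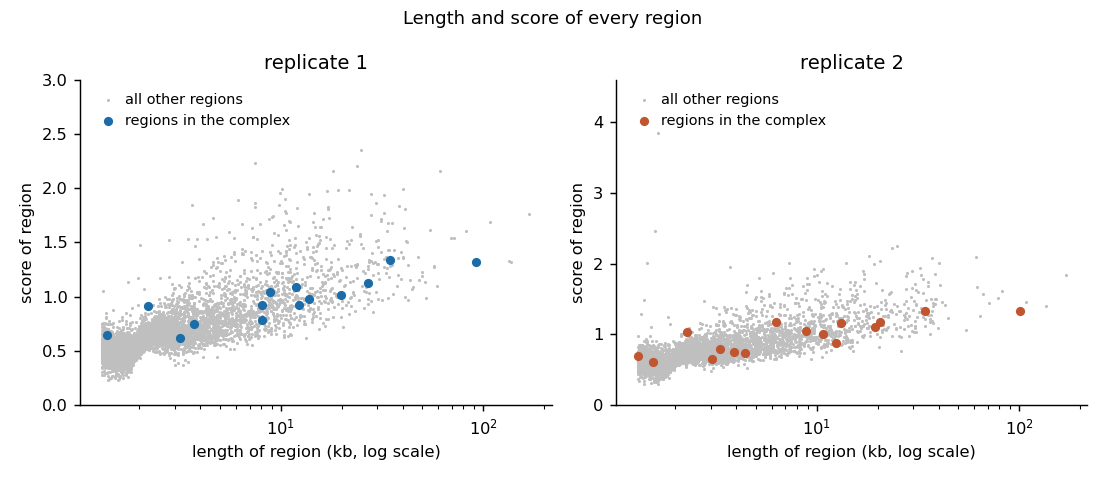
Score of every region (y axis) by its length (x axis, kb, log scale) in each replicate, with regions of the complex as large points and all others in grey. Regions of the complex follow the spread of the others, and the longest, at 92.3 kb in replicate 1 and 101.0 kb in replicate 2, have scores of 1.32 and 1.33.

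By shared length, the replicates matched more closely in the complex than in most windows. They shared 241.2 kb of the 252.8 kb marked in either, a Jaccard index of 0.954, against 0.699 for the whole lists and a median of 0.658 over windows. Of 11624 windows with any region, 37 (0.318%) had an index as high. The 5 windows covered most, in the order given above, had indices of 0.935, 0.886, 0.870, 0.836 and 0.841. A close match was thus also seen in other heavily marked windows. Of the regions of replicate 1, 13 of 14 overlapped replicate 2, against 68.5% of the list, and 15 of 16 regions of replicate 2 overlapped replicate 1, against 86.2%. With a reciprocal overlap of 50% the difference from the list was smaller, and in replicate 2 it was slight. It was 11 of 14 regions (78.6%) against 55.4% of the list in replicate 1, and 11 of 16 (68.8%) against 66.6% in replicate 2. The unmatched ones at 1 bp were the region of replicate 1 at 12757765 and a region of 1549 bp in replicate 2, from 12743079 to 12744627, both short and on the Abd-B side. The distance of a region edge to the nearest like edge in the other replicate had a median of 240.5 bp over 28 edges of replicate 1, against 664.5 bp on the arms, and of 312.5 bp over 32 edges of replicate 2, against 409 bp. The part of the length of the regions in this match was not tested.

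The list for the set added little over the whole complex, and more on the Abd-B side. Of its 261.1 kb in the complex, 10.3 kb (3.93%) lay in neither replicate, against 21.9% of the whole list. These were in part 5 short regions of 1031 to 1732 bp, all beyond 12744627 on the Abd-B side. The 110 kb on that side were covered to 47.8% in the set, against 37.5% and 34.8% in the replicates. Beyond 12744627 the share was 13.3%, against 2.11% in replicate 1. Replicate 2 had 0% there by construction, since this point is the end of its last region in the complex.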

How the data were processed

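The authors aligned the reads with Bowtie 0.12.7 (named in the submitters' processing notes). The deposited files give regions of significant enrichment with a start, an end and a score per region, on FlyBase release 5 per the file headers. The region caller, the threshold, how the set list was made from the replicates and the scale of the score were not given in the sources used here. Positions count from 1 with both ends included. Covered share is the share of bases in any region of a list, and sequence marked in both replicates is the overlap of both lists. Windows and bins were complete stretches on 2L, 2R, 3L, 3R and X. The background windows left out those that touched the complex. The members, the lists and the comparisons were chosen with earlier results of these data known. Regions to be described were all those in the complex, with the gaps of at least 1 kb between them named or counted, and outside it the 5 non-overlapping windows covered most. With 2 replicates of 1 condition, no test over samples was run. All 16 genes listed for the description, among them Ubx, abd-A and Abd-B, were found in the gene table of release 6, and none was given a position. Sequence of release 5 was not used here. The interval code was tested on simulated lists. Python 3.11.15, NumPy 2.4.6, SciPy 1.17.1 and matplotlib 3.10.9 were used.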

Additional observations from a re-analysis of the deposited data

How the results depend on the processing

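The share of the complex marked in both replicates, 73.1%, ran from 74.8% to 74.9% in single replicates. It was 79.1% in the list for the set, 71.8% with the higher-scoring 50% of each list and 74.3% after joining regions with gaps under 1000 bp. It was 77.2% with limits moved inwards by 20 kb and 66.1% with limits moved outwards by 20 kb. Windows covered as much made up 0% as reported and 0% to 0.00857% in single replicates, 0.0600% in the list for the set and 0.0767% (9 of 11741) with windows that overlap the complex kept. They were 0% with the higher-scoring 50%, with merging, every 50 kb and on 3R alone. The longest gap, 68.1 kb at the Abd-B side, was 50.9 kb to 65.4 kb in single replicates and 28.3 kb in the list for the set. It was cut by the limit of the complex and was not long for a window. The median longest gap of the windows was 107.8 kb in replicate 1, 115.9 kb in replicate 2 and 89.6 kb in the set. In these lists 90.9%, 87.1% and 97.3% of windows had one at least as long as the complex. The longest region, 92.3 kb, was 92.3 kb to 101.0 kb in single replicates, 101.1 kb in the list for the set and 100.5 kb with merging. Regions matched in the other replicate fell from 93.3% to 73.3% with a reciprocal overlap of 50%, where those of replicate 2 (68.8%) were close to its whole list (66.6%). The weighted score rank of 91.0% was 89.6% to 92.3% in single replicates, 93.5% in the list for the set and 56.9% among regions of at least 10 kb. The covered share of the Ubx side, the middle and the Abd-B side, 93.2%, 93.0% and 33.0%, was 93.3% to 94.0%, 94.0% to 95.5% and 34.8% to 37.5% in single replicates, and 94.1%, 95.4% and 47.8% in the list for the set, settings added after the data were examined. Single lists cover more than their overlap by construction, and the cause of the other changes was not tested. No paired analysis was possible because regions were deposited for the immunoprecipitated replicates alone. The part of depth in the short regions on the Abd-B side was not tested, since read numbers were not used here.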
